A study of Drosophila melanogaster with 15 samples.

Results

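Larvae whose muscles expressed a hairpin against Deaf1 (Mef2>Deaf1RNAi, 3 libraries) were compared with larvae that carried the same muscle driver and no second transgene (Mef2>+, 3 libraries). These 6 libraries were taken by their genotype labels from the 15 of the series, and the question was which genes and gene classes still differ when the control expresses no hairpin. Larvae were opened and cleared before RNA was taken, which leaves the muscle layer of the body wall on its epidermis (a fillet), and each library is a biological replicate of its genotype. All of these larvae carried Mef2-Gal4, and the + stands for the w1118 stock used in place of a transgene line. A hairpin control, Mef2>whiteRNAi (3 libraries), whose hairpin is directed against the eye-color gene w, is used below only to show which differences hold against both controls. For its experiments in general, the study counts different larvae as biological replicates, and how many larvae were pooled in a sequenced library, if any, and their age were not found in its methods.

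Deaf1 is a DNA-binding transcription factor with known roles in fly embryonic development and innate immunity. The hairpin is expressed through the GAL4/UAS system: Mef2-Gal4 makes the yeast activator GAL4 where the muscle regulator Mef2 is active, and GAL4 switches on the UAS transgene. Mef2 is also active in visceral muscle and in some neurons, so the driver is not limited to the body wall. A control without a transgene lacks both the second insertion and the processing of a hairpin by the RNAi machinery, and its other parent comes from a different stock, so these differences and the loss of Deaf1 cannot be told apart in this comparison alone.

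The deposited values are counts of reads per gene. Counts on genes ran from 17634738 to 21919040 in the Mef2>Deaf1RNAi libraries, from 16186361 to 21438118 in Mef2>+ and from 20199551 to 32756446 in Mef2>whiteRNAi. Levels are given below as counts per 1000000 counts on genes (CPM) after TMM scaling, and a gene is called changed at an adjusted p under 0.05. The 30 sarcomere genes tested, which mark muscle, summed to 94907 to 101415 CPM under Deaf1 RNAi and to 95075 to 135442 CPM in Mef2>+, so these ranges overlapped. Among the Mef2>+ libraries, replicate 3 stood apart. Its log2 CPM values correlated with those of replicates 1 and 2 at 0.945 and 0.932 across genes, against 0.992 between replicates 1 and 2, and genes are not independent replicates. In that library, the 30 spermatocyte and spermatid genes tested summed to 241 CPM against 45.6 and 35.9 CPM in the other Mef2>+ libraries and 30.4 to 32.6 CPM in Mef2>Deaf1RNAi, and the steroid-responsive nuclear receptor gene Hr4 stood at 1.33 CPM against 109 and 127 CPM.

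Deaf1 mRNA remained clearly detectable under the hairpin. It stood at 23.9, 23.2 and 21.5 CPM under Deaf1 RNAi and at 35.7, 37.0 and 31.8 CPM in Mef2>+. All 3 RNAi libraries lay below all 3 control libraries, and their mean was 65.6% of the control mean. The log2 fold change was -0.61 (standard error, SE, of 0.10), adjusted p = 0.0045 by the quasi-likelihood test of edgeR. Permuted exactly over these libraries (two-sided), p was 0.1, and no lower p is possible with 3 libraries on each side. Against Mef2>whiteRNAi, at 42.9, 43.8 and 38.7 CPM, the log2 fold change was -0.87. Fewer cells that express a gene and less RNA per cell cannot be told apart in bulk tissue, and cells outside the driver's range also contribute Deaf1 reads.

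The eye-color gene w, the target of the control hairpin, served as a second check of the labels. It stood at 32.6, 30.0 and 27.9 CPM under Deaf1 RNAi, at 40.5, 35.8 and 35.6 CPM in Mef2>+, and at 14.6, 14.9 and 10.5 CPM in Mef2>whiteRNAi. Its level in Mef2>Deaf1RNAi was thus nearer to that of the control without a hairpin than to that of Mef2>whiteRNAi. All 3 Mef2>Deaf1RNAi libraries lay below all 3 Mef2>+ libraries, but the log2 fold change of -0.31 (adjusted p = 0.31) did not pass the test. The marker genes v and y, which are common in RNAi stocks, were not called either, with a log2 fold change of -0.27 for v and 9 against 2 counts in all for y.

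Of 10930 genes tested, 373 were higher in Mef2>Deaf1RNAi than in Mef2>+ (3.41% of genes tested) and 536 were lower (4.9%). Changes of at least 1 on the log2 scale were made by 85 of the higher and 155 of the lower genes. The median log2 fold change of all genes tested was -0.06. The plot of fold change against expression level shows these genes among all genes tested. Leaving out Mef2>+ replicate 3 reduced the counts to 166 higher and 271 lower genes, and leaving out any other single library also reduced them, to as few as 119 and 162.

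**Figure D1:**
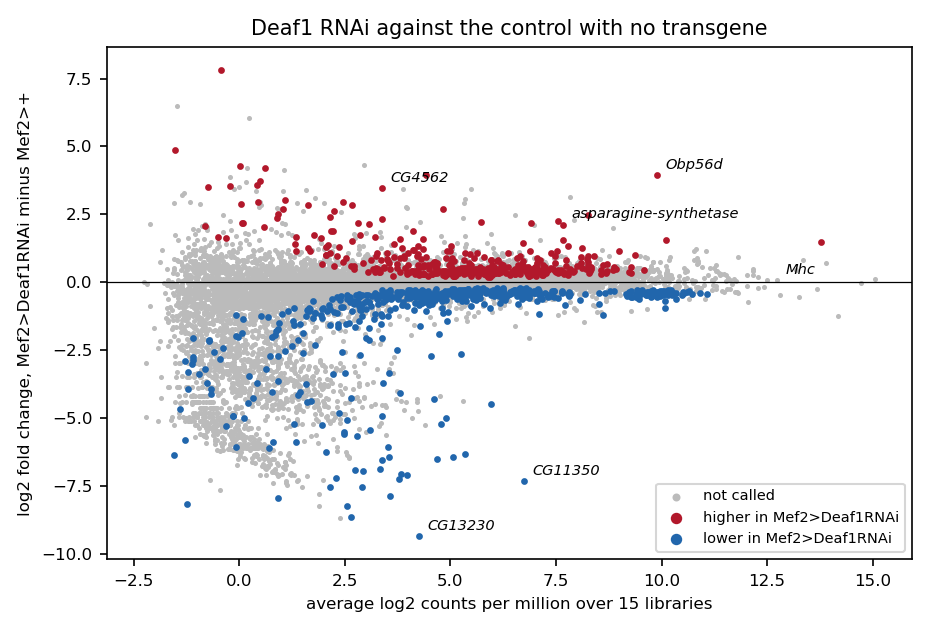
Log2 fold change of each of 10930 genes (Mef2>Deaf1RNAi minus Mef2>+, vertical axis) against its average log2 CPM over 15 libraries. Red points are the 373 higher genes, blue points the 536 lower genes and grey points genes that did not pass adjusted p of 0.05. Among the labelled genes, Obp56d lies at 3.94 and the myosin gene Mhc at 0.09.

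Few contractile and energy genes of muscle passed the test against the control without a hairpin. Over all genes tested, 3.41% were higher and 4.9% lower, so the low counts in these short lists lie near those shares. None of 11 glycolytic genes was called by edgeR (median log2 fold change 0.35), with 1 at an unadjusted p under 0.05 and 0 called by DESeq2 or limma voom. None of 22 nuclear genes of oxidative phosphorylation was called by edgeR (median 0.20), with 7 at an unadjusted p under 0.05, 3 called by DESeq2 and 0 by limma voom. Of 30 sarcomere genes tested, 1 was called (median 0.09). The glycolytic list is the gene class that the study examined in these same libraries, so its choice is not independent of them. Enolase (Eno) had the largest positive fold change of the glycolytic list, at 4102, 3664 and 3016 CPM under Deaf1 RNAi and 1606, 1460 and 2819 CPM in Mef2>+. All RNAi libraries were above the controls, but the log2 fold change of 0.87 (SE 0.35) did not pass (adjusted p = 0.15). The glycolytic kinase gene Pgk ran at 791, 704 and 590 CPM against 481, 450 and 706 CPM, so the 2 groups overlapped. Myosin heavy chain (Mhc) ran from 11330 to 12373 CPM against 8404 to 16083 CPM, a log2 fold change of 0.09 (SE 0.43). The 1 sarcomere gene that rose was tmod, which encodes the thin-filament cap tropomodulin. It stood at 919, 924 and 961 CPM against 711, 721 and 633 CPM, a log2 fold change of 0.44 (adjusted p = 0.026) that did not pass when any 1 of the 6 libraries was left out.

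The same lists gave other values against the hairpin control, and the libraries of Mef2>Deaf1RNAi enter both comparisons. Against Mef2>whiteRNAi, where 5.48% of genes tested were higher and 3.33% lower, 7 of 11 glycolytic genes (median log2 fold change 1.14), 17 of 30 sarcomere genes (median 1.06) and 21 of 22 oxidative phosphorylation genes (median 0.73) were higher. The difference between these comparisons is that between the controls themselves, which was tested in the same model. In Mef2>whiteRNAi relative to Mef2>+, where 6.3% of genes tested were higher and 10.2% lower, 21 of 30 sarcomere genes and 21 of 22 oxidative phosphorylation genes were lower. None of the 11 glycolytic genes was called between the controls (median -0.76). Sarcomere transcripts summed to 29209, 44680 and 67165 CPM in Mef2>whiteRNAi, below every library of the other genotypes compared. Glycolytic transcripts summed to 27184, 23778 and 18828 CPM under Deaf1 RNAi, to 14588, 13550 and 23869 CPM in Mef2>+ and to 5846, 9900 and 14760 CPM in Mef2>whiteRNAi. In Mef2>+ the highest glycolytic and the highest sarcomere sums were both in replicate 3. Without that library the median of the glycolytic list rose to 0.67, and still none of its genes passed.

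**Figure D2:**
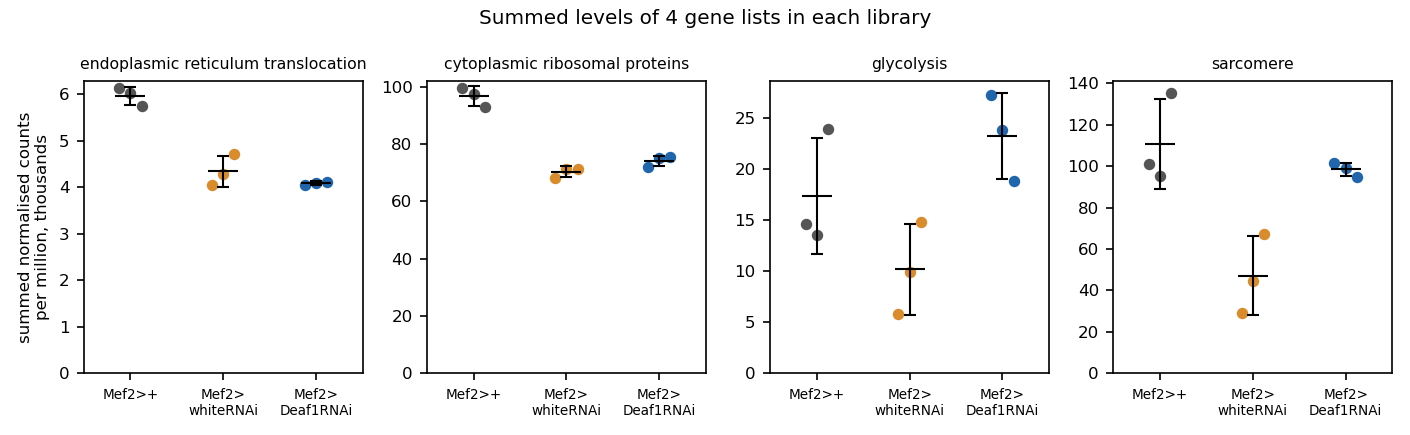
Summed normalised CPM (axis in units of 1000 CPM, from 0) of 4 gene lists in each library of Mef2>+ (grey), Mef2>whiteRNAi (orange) and Mef2>Deaf1RNAi (blue), with the mean and SD of 3 libraries in black. The sarcomere sums of Mef2>Deaf1RNAi overlap those of Mef2>+ and lie above Mef2>whiteRNAi, while the ribosomal protein sums of Mef2>Deaf1RNAi fall below all of Mef2>+.

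Transcripts of the translation and secretion machinery were lower in Mef2>Deaf1RNAi. Of 86 cytoplasmic ribosomal protein genes tested, 68 fell and none rose (median log2 fold change -0.38). The ribosomal protein gene RpS2 stood at 789, 820 and 815 CPM under Deaf1 RNAi and at 1175, 1179 and 1204 CPM in Mef2>+, with no overlap and little spread within either group. Its log2 fold change was -0.55 (SE 0.09, adjusted p = 0.0052). RpL26 stood at 744, 786 and 736 CPM against 1123, 1102 and 1071 CPM, a log2 fold change of -0.54. The 86 genes tested summed to 72016, 74942 and 75360 CPM against 99688, 97597 and 92939 CPM. The hairpin control had sums of 68104, 71426 and 71362 CPM, and against it none of the 86 genes was called (median 0.07), whereas 81 were lower in Mef2>whiteRNAi than in Mef2>+ (median -0.46). The count of called ribosomal protein genes was 36 without Mef2>+ replicate 3 and between 12 and 23 without any other single library, with a median that stayed between -0.41 and -0.36. Of the mitochondrial ribosomal protein genes, fewer were called, with 7 of 71 lower and 1 higher (median -0.22), and 1 to 3 lower when single libraries were left out. The shares over all genes tested were 4.9% lower and 3.41% higher.

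Genes that carry proteins into the endoplasmic reticulum and fold them there were lower in nearly every member. This list was added after the values were seen, because several of its members were already among the lower genes. Of its 15 genes, 14 fell and none rose (median log2 fold change -0.57), and between 11 and 13 were still lower without each single library. Gp93, the chaperone of the Hsp90 family in this compartment, stood at 299, 306 and 329 CPM under Deaf1 RNAi and at 561, 556 and 502 CPM in Mef2>+. The log2 fold change was -0.79 (SE 0.09, adjusted p = 8.6e-04). The translocon subunit gene Sec61beta stood at 88.98, 97.6 and 93.6 CPM against 143, 132 and 138 CPM, a log2 fold change of -0.56. The chaperone Hsc70-3, the fly BiP, stood at 916, 940 and 930 CPM against 1548, 1554 and 1374 CPM, a log2 fold change of -0.68. Most of this decrease was shared by the hairpin control, in which 12 of the 15 were lower than in Mef2>+. Against both controls, 3 of the 15 fell. These were Tapdelta and l(1)G0320, which encode subunits of the translocon-associated TRAP complex, and CG2918, the Grp170 chaperone gene. Tapdelta stood at 56.8, 55.6 and 56.5 CPM under Deaf1 RNAi, at 92.2, 91.3 and 105 CPM in Mef2>+ and at 65.2, 68.1 and 72.6 CPM in Mef2>whiteRNAi, so none of the groups overlapped.

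**Figure D3:**
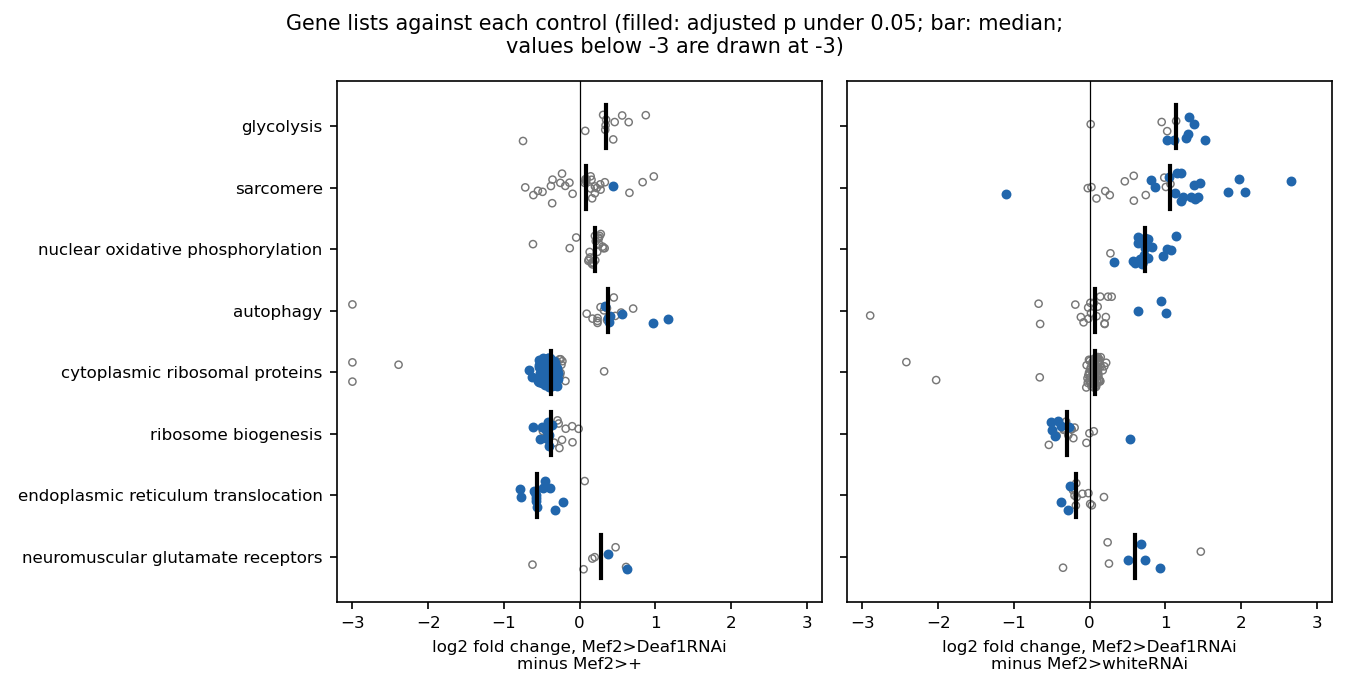
Log2 fold change of each gene of 8 lists in Mef2>Deaf1RNAi relative to Mef2>+ (left) and relative to Mef2>whiteRNAi (right), with filled circles for adjusted p under 0.05 and a black bar for the median of the list. Values below -3 are drawn at -3. Glycolytic, sarcomere and oxidative phosphorylation genes have medians of 0.73 to 1.14 against the hairpin control and of 0.09 to 0.35 against Mef2>+, while ribosomal protein genes have medians of 0.07 and -0.38. The 2 panels share the Mef2>Deaf1RNAi libraries.

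Against both controls and in the same direction, 103 genes were higher (0.942% of genes tested) and 67 were lower (0.613%). They made up 18.7% of the genes called against Mef2>+ and 17.7% of those called against Mef2>whiteRNAi, and a further 14 genes were called in opposite directions. For each of these 170 genes, the 3 Mef2>Deaf1RNAi libraries did not overlap with either set of controls. Against Mef2>+ alone, 34.8% of all genes tested had libraries that did not overlap. Without each single library in turn, 36 of the 103 higher and 27 of the 67 lower genes stayed called against Mef2>+ every time.

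The asparagine-synthetase gene, whose product makes asparagine from aspartate, stood at 269, 346 and 441 CPM under Deaf1 RNAi, at 95.0, 93.8 and 53.8 CPM in Mef2>+ and at 90.2, 183 and 130 CPM in Mef2>whiteRNAi. Each RNAi library lay above every control library. The log2 fold change was 2.12 against Mef2>+ (SE 0.31, adjusted p = 0.0028) and 1.39 against Mef2>whiteRNAi. Sodh-2, a sorbitol dehydrogenase gene, stood at 198, 289 and 388 CPM against 92.5, 78.7 and 151 CPM in Mef2>+ and 28.0, 34.4 and 64.3 CPM in Mef2>whiteRNAi. Its log2 fold change against Mef2>+ was 1.44 (adjusted p = 0.026), and the call was lost without either of Mef2>+ replicates 1 and 2 and without either of Mef2>Deaf1RNAi replicates 2 and 3. CG7294 was at 373, 437 and 406 CPM against 157, 150 and 173 CPM, a log2 fold change of 1.34. Mur2B, CG2254, CG15412, CG31910, CG4329 and CG40298 were the other named rises against both controls, with log2 fold changes of 1.40 to 2.70 against Mef2>+. Mur2B overlaps br on the opposite strand and CG3740 on the same strand. CG15412, CG31910 and CG4329 lost their call without any 1 of 4 or 5 of the 6 libraries, Mef2>+ replicates 1 and 2 among them. CG31910 and CG4329 were nearly silent in both controls, at 0.270 to 1.05 CPM and 0.407 to 1.83 CPM, against 3.35 to 4.65 CPM and 3.38 to 7.84 CPM under Deaf1 RNAi. Larvae that overexpressed Deaf1 (Mef2>Deaf1, outside this comparison) also had high asparagine-synthetase, at 336, 385 and 216 CPM. They had CG7294 at 356, 206 and 317 CPM. Sodh-2, Mur2B, CG2254, CG15412, CG31910, CG4329 and CG40298 lay there below every Mef2>Deaf1RNAi library. In libraries labelled Mef2>Gsk3CA, for a constitutively active Gsk3 kinase, CG31910 was at 5.58, 6.42 and 1.41 CPM. CG4329 was at 14.8, 16.1 and 6.72 CPM there, so neither was high only under Deaf1 RNAi. Sodh-2, Mur2B, CG2254, CG15412 and CG40298 lay below every Mef2>Deaf1RNAi library in Mef2>Gsk3CA too. The differences from Mef2>Deaf1 and Mef2>Gsk3CA were not tested.

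The hemocyte gene nimC1, which encodes a phagocytosis receptor of blood cells, had the smallest adjusted p against Mef2>+ of the 103 genes higher against both controls. It stood at 43.996, 54.2 and 66.7 CPM under Deaf1 RNAi, at 12.2, 13.7 and 9.69 CPM in Mef2>+ and at 25.5, 19.1 and 21.7 CPM in Mef2>whiteRNAi. In Mef2>Deaf1, which overexpresses Deaf1, nimC1 was higher still, at 134, 117 and 126 CPM. The log2 fold change against Mef2>+ was 2.21 (SE 0.17, adjusted p = 6.7e-05). Other plasmatocyte markers were not called against Mef2>+. Hml, Pxn, crq, eater, Sr-CI, He and srp had log2 fold changes between -0.53 and 0.24 in that comparison, while Pxn and Sr-CI rose against Mef2>whiteRNAi by 0.51 and 0.86. The crystal cell genes proPO-A1 and PO45, which encode prophenoloxidases, also rose against Mef2>+, by 1.57 and 1.27, but were not called against the hairpin control, and PO45 lost its call without either of Mef2>+ replicates 1 and 2 or of Mef2>Deaf1RNAi replicates 1 and 2, as proPO-A1 did without Mef2>+ replicate 1. Of 11 hemocyte genes tested, 3 were thus higher, beside 3.41% of all genes tested. The 11 genes summed to 1650 to 1812 CPM under Deaf1 RNAi and to 1199 to 1669 CPM in Mef2>+.

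Genes of autophagy, the pathway that encloses cell contents for lysosomal breakdown, included 7 rises. This list was also added after the values were seen. Of 22 genes tested, 7 rose and none fell (median log2 fold change 0.37, against -0.06 for all genes), beside 3.41% higher and 4.9% lower over all genes tested. Atg9, the transmembrane protein of autophagy vesicles, stood at 535, 542 and 498 CPM under Deaf1 RNAi, at 251, 254 and 300 CPM in Mef2>+ and at 209, 273 and 339 CPM in Mef2>whiteRNAi. It rose by 0.97 (SE 0.15, adjusted p = 0.0037) against Mef2>+ and by 0.94 against Mef2>whiteRNAi. DOR, a regulator of both autophagy and ecdysone signaling, stood at 889, 769 and 686 CPM against 307, 302 and 436 CPM, a log2 fold change of 1.16 that was called only with all libraries or without Mef2>+ replicate 3. Atg9 and DOR were the 2 list members higher against both controls. Atg8a, whose product coats the autophagosome membrane, stood at 714, 733 and 790 CPM against 548, 531 and 433 CPM. Its log2 fold change was 0.56 against Mef2>+ (adjusted p = 0.011) and 0.21 against Mef2>whiteRNAi (adjusted p = 0.27). Only 1 to 3 of the 22 genes passed when a single library was left out, although Atg9 did so each time. Pink1, a kinase of mitochondrial quality control that is not in the list, rose by 0.38 against Mef2>+ and by 0.56 against Mef2>whiteRNAi, and its call against Mef2>+ held without 2 of the 6 libraries, Mef2>+ replicate 2 and Mef2>Deaf1RNAi replicate 1.

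Some genes of the neuromuscular synapse also rose against both controls, and bulk RNA does not show which cells made these transcripts. GluRIIE and KaiRIA both encode essential subunits of the glutamate receptor at the larval neuromuscular junction. They were the 2 genes called in a list of 8 that also holds Nlg1, dlg1 and Neto, beside 3.41% of all genes tested that were higher. GluRIIE stood at 109, 108 and 103 CPM under Deaf1 RNAi and at 67.8, 68.5 and 72.9 CPM without a transgene, a log2 fold change of 0.62 (adjusted p = 0.020). KaiRIA stood at 103, 116 and 122 CPM against 92.5, 90.3 and 81.1 CPM, a log2 fold change of 0.37 (adjusted p = 0.047). Both genes overlap on the same strand in the reference annotation, so their reads may not be fully separate, and KaiRIA lost its call when any 1 of the 6 libraries was left out, as GluRIIE did except for Mef2>+ replicate 3. The alternative subunits GluRIIA and GluRIIB had log2 fold changes of 0.05 and -0.62 and were not called. Outside that list of 8, CaMKII, a kinase that modulates synaptic strength, was at 405, 376 and 404 CPM against 274, 259 and 264 CPM. It had a log2 fold change of 0.57 that did not pass when any 1 of the libraries was left out. The innexin gene shakB, a gap junction channel, was at 24.5, 25.96 and 28.3 CPM against 11.2, 11.2 and 10.5 CPM, a log2 fold change of 1.26 that passed without each library in turn. Mnt, the antagonist of Myc, rose by 0.64 against Mef2>+ and by 1.07 against Mef2>whiteRNAi, and lost the first call without Mef2>+ replicate 1 or 3 or Mef2>Deaf1RNAi replicate 3.

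**Figure D4:**
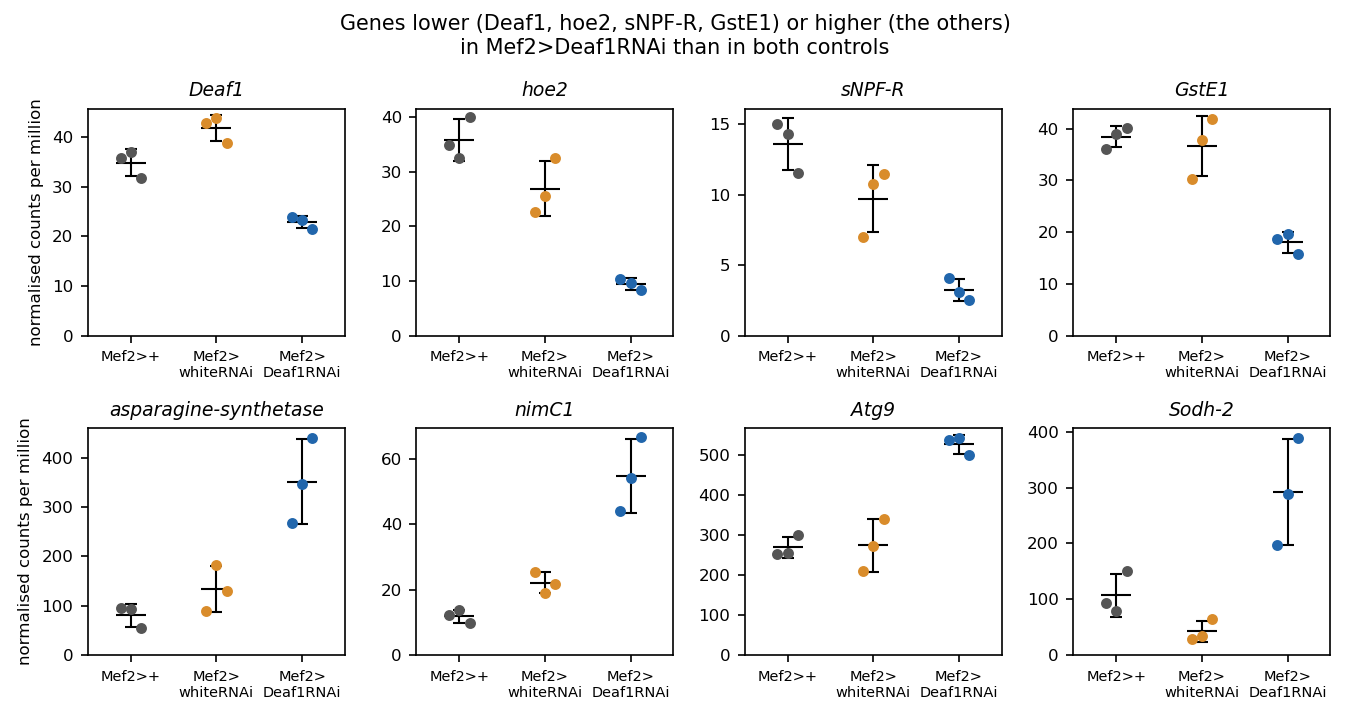
Normalised CPM (axis from 0) of 8 genes called in the same direction against both controls, in each library of Mef2>+ (grey), Mef2>whiteRNAi (orange) and Mef2>Deaf1RNAi (blue), with the mean and SD of 3 libraries in black. In every panel the 3 Mef2>Deaf1RNAi libraries lie beyond all 6 control libraries.

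Of the decreases against both controls, that of hoe2 had moderate levels and little spread, and that of sNPF-R lay at lower levels. The gene hoe2, which encodes a membrane transporter of the family of the mammalian pigment protein P, stood at 10.4, 9.64 and 8.37 CPM under Deaf1 RNAi, at 34.9, 32.6 and 40.0 CPM in Mef2>+ and at 22.7, 25.6 and 32.5 CPM in Mef2>whiteRNAi. Its log2 fold change against Mef2>+ was -1.92 (SE 0.15, adjusted p = 5.9e-05). The gene sNPF-R, the receptor of short neuropeptide F, stood at 4.06, 3.09 and 2.54 CPM against 14.99, 14.3 and 11.5 CPM, a log2 fold change of -2.07. GstE1, a glutathione transferase, was at 18.6, 19.7 and 15.8 CPM against 36.2, 39.0 and 40.1 CPM, a log2 fold change of -1.09. Eaat1, a glutamate transporter of glia, was at 3.02, 1.95 and 2.25 CPM against 5.63, 5.46 and 7.20 CPM, a log2 fold change of -1.34. It was the only 1 of 7 glial markers called. CG18278 also fell against both controls, with a log2 fold change of -1.43 against Mef2>+. The decreases of hoe2, sNPF-R, GstE1 and Eaat1 passed without each of the 6 libraries.

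Some nucleolar genes were lower against both controls by a smaller amount. In a list of 20 genes of ribosome biogenesis, added after the values were seen, 9 fell against Mef2>+ and none rose (median log2 fold change -0.38), and 5 of these were also lower against Mef2>whiteRNAi. Without single libraries, 3 to 6 of the 20 were called lower against Mef2>+, with 4 without Mef2>+ replicate 3. Nopp140, a nucleolar phosphoprotein, stood at 38.3, 37.2 and 35.9 CPM under Deaf1 RNAi and at 53.3, 53.6 and 63.4 CPM without a transgene, a log2 fold change of -0.61 (adjusted p = 0.0035). Nop56, a core protein of box C/D small nucleolar ribonucleoproteins, was at 29.1, 27.5 and 26.2 CPM against 40.4, 34.9 and 43.6 CPM, a log2 fold change of -0.52. Hsp60, the mitochondrial chaperonin, fell by 0.81 on the log2 scale against Mef2>+ and was at 78.4, 74.9 and 67.8 CPM against 117, 111 and 159 CPM.

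Genes of the gut were among the larger decreases against both controls, from low levels. Of 28 midgut digestive enzyme genes tested, 11 fell and none rose against Mef2>+ (median log2 fold change -3.19), and 4 of these also fell against Mef2>whiteRNAi. LysB, a digestive lysozyme, stood at 0.274, 0.315 and 0.147 CPM under Deaf1 RNAi, at 49.2, 48.4 and 14.6 CPM in Mef2>+ and at 1.95, 80.1 and 8.72 CPM in Mef2>whiteRNAi. The control libraries thus spread widely, and the RNAi libraries were uniformly low. Low LysB was not particular to Deaf1 RNAi. Outside this comparison it was at 0.0442, 0.445 and 0.693 CPM in Mef2>Deaf1 and at 0.409, 0.0969 and 0.376 CPM in Mef2>Gsk3CA. The trypsin gene deltaTry was also low in both, except for 8.67 CPM in Mef2>Deaf1 replicate 3. LysB, LysD and LysE are near-identical copies, as are the trypsin genes deltaTry, gammaTry and CG30025, so counts of each single copy are uncertain. A fillet normally has the gut removed, and how much gut stayed in each library was not measured. With limma voom none of the 11 passed, and none passed in edgeR when any 1 of the Mef2>Deaf1RNAi libraries was left out. CG7953, CG12115 and CG8997 were at 0.165 to 0.384 CPM under Deaf1 RNAi and at 4.10 to 19.0 CPM in Mef2>+. The cuticle protein gene Cpr47Eb was at 2.41, 2.65 and 1.32 CPM against 25.2, 24.4 and 14.9 CPM. None of these 4 was called when any 1 of the Mef2>Deaf1RNAi libraries was left out.

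Antimicrobial peptide genes, a class tied to Deaf1 in flies, included 2 decreases among 14 tested and no rise (median log2 fold change -1.78). The share of all genes tested that were lower was 4.9%. The 14 genes tested summed to 365 to 378 CPM under Deaf1 RNAi and to 477, 465 and 37.4 CPM in Mef2>+, so the groups overlapped and Mef2>+ replicate 3 lay far below the rest. DESeq2 called 5 lower, and 1 was called in edgeR when any 1 library was left out. Metchnikowin (Mtk) stood at 0.219, 0.504 and 0.734 CPM under Deaf1 RNAi and at 13.5, 12.8 and 5.09 CPM without a transgene, a log2 fold change of -4.40 (SE 0.76, adjusted p = 0.0060). In Mef2>whiteRNAi it was at 1.16, 1.57 and 2.77 CPM, and the difference from that control did not pass (adjusted p = 0.12). Drosocin (Dro) was at 2.19, 1.64 and 2.89 CPM against 6.60, 6.88 and 6.202 CPM in Mef2>+ and 4.37, 5.04 and 8.80 CPM in Mef2>whiteRNAi, and fell by 1.54 and 1.43 on the log2 scale. Its call against Mef2>+ was lost when any 1 of the 6 libraries was left out. Drosomycin (Drs) was at 1.48, 1.70 and 2.06 CPM against 8.64, 8.03 and 3.32 CPM, a log2 fold change of -1.93 that did not pass (adjusted p = 0.067). Among 20 recognition and immune-induced genes, PGRP-LA, PGRP-LB and PGRP-LC, which encode peptidoglycan recognition proteins, fell against Mef2>+ by 0.62, 0.95 and 0.38 on the log2 scale. None of these 3 was called against the hairpin control, and PGRP-LB and PGRP-LC lost their call against Mef2>+ when any 1 of the 6 libraries was left out.

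The 12 largest rises against Mef2>+, taken among genes with an average log2 CPM of at least 1 whose libraries did not overlap, were for the most part also present in the hairpin control. Obp56d, an odorant binding protein gene, stood at 1740, 2048 and 2659 CPM under Deaf1 RNAi, at 154, 180 and 87.5 CPM in Mef2>+ and at 1314, 1347 and 1084 CPM in Mef2>whiteRNAi. The log2 fold change against Mef2>+ was 3.94 (SE 0.33, adjusted p = 1.2e-04), and against Mef2>whiteRNAi it was 0.78 (adjusted p = 0.13). Of 14 odorant binding protein genes tested, 6 rose and none fell against Mef2>+ (median 0.91), and none rose against Mef2>whiteRNAi. CG4562, an ABC transporter gene, was at 13.9, 13.8 and 14.7 CPM against 1.28, 0.877 and 1.66 CPM, with 18.8, 16.5 and 13.3 CPM in the hairpin control. CG13856, CG13041, CG6981, CG4398, antdh, CG1113, CG6912 and Obp99b were likewise higher in Mef2>whiteRNAi than in Mef2>+, with log2 fold changes of 2.47 to 3.94 between Mef2>Deaf1RNAi and Mef2>+. Without single libraries, CG13856, CG6981, CG6912 and Obp99b lost their call at least once. Of the 12 largest rises, only CG31910 and CG4329 also rose against the hairpin control. By abundance, CG42500 and the capsid-like gene Arc1 stood out, a choice made after their values were seen. CG42500 was at 24374 ± 5442 CPM under Deaf1 RNAi and 8760 ± 1381 CPM in Mef2>+ (means with SD, n = 3 for both), a log2 fold change of 1.48, and Arc1 was at 1718 ± 331 CPM against 592 ± 25.5 CPM, a log2 fold change of 1.54. In Mef2>whiteRNAi these genes stood at 21055 and 1899 CPM.

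For 8 of the 12 largest decreases, taken by the same rule, the level was low in the libraries of both hairpin genotypes and higher in all 3 of Mef2>+. CG13230 stood at 0.165, 0.126 and 0.0489 CPM under Deaf1 RNAi, at 94.4, 90.5 and 40.5 CPM in Mef2>+ and at 0.0465, 0.0923 and 0.122 CPM in Mef2>whiteRNAi. Its 6 counts over all RNAi libraries against 3918 in Mef2>+ gave a pooled ratio of 679 (exact 95% interval 312 to 1852, counting error only). CG11350 was at 1.97, 1.64 and 1.57 CPM against 333, 279 and 221 CPM, with 1.35, 1.08 and 0.978 CPM in the hairpin control, a log2 fold change of -7.33. Tektin-C, a microtubule protein of cilia and sperm tails, was at 0.110, 0.0630 and 0 CPM against 7.62, 7.76 and 11.6 CPM, and here all 3 Mef2>+ libraries were alike. TwdlP, CG10953, CG15597, CG14419 and CG10912 were likewise low in both hairpin genotypes, whereas CG14302, deltaTry, LysB and CG30025 varied widely among the Mef2>whiteRNAi libraries. Low levels were not limited to hairpin genotypes. In Mef2>Deaf1, which carries no hairpin, CG13230 was at 0.132, 0 and 0.198 CPM and CG11350 at 0.442, 0.607 and 0.743 CPM. TwdlP, CG10953, CG15597 and CG14419 were at 0 to 0.526 CPM there. Tektin-C, at 8.61, 9.03 and 9.06 CPM, was not low in Mef2>Deaf1, and CG10912 reached 30.3 CPM in its replicate 3. Levels also varied widely within 1 genotype. In Mef2>Gsk3CA, CG13230 was at 7.10, 0.226 and 52.2 CPM and CG11350 at 72.9, 1.19 and 677 CPM, while CG10912 was low, at 0.205, 0.0323 and 0.282 CPM. The cuticle genes Cpr47Eg, Lcp65Ag1, Lcp65Ag2 and Lcp65Ag3 were also low in both hairpin genotypes, with log2 fold changes of -6.34 to -4.10 against Mef2>+ and no call against Mef2>whiteRNAi, and the Lcp65Ag genes, near-identical copies, lost their call when any 1 library was left out. In all, 7 of 52 cuticle protein genes tested were lower and 3 were higher, beside 4.9% and 3.41% of all genes tested. The lower ones numbered 3 without Mef2>+ replicate 3, 1 without any other single library and 2 with limma voom. Of the 12 largest decreases, CG13230, TwdlP and Tektin-C were called without each of the 6 libraries and the other 9 lost their call at least once. With limma voom none of the 12 largest decreases passed, although their log2 fold changes stayed between -9.10 and -6.78.

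**Figure D5:**
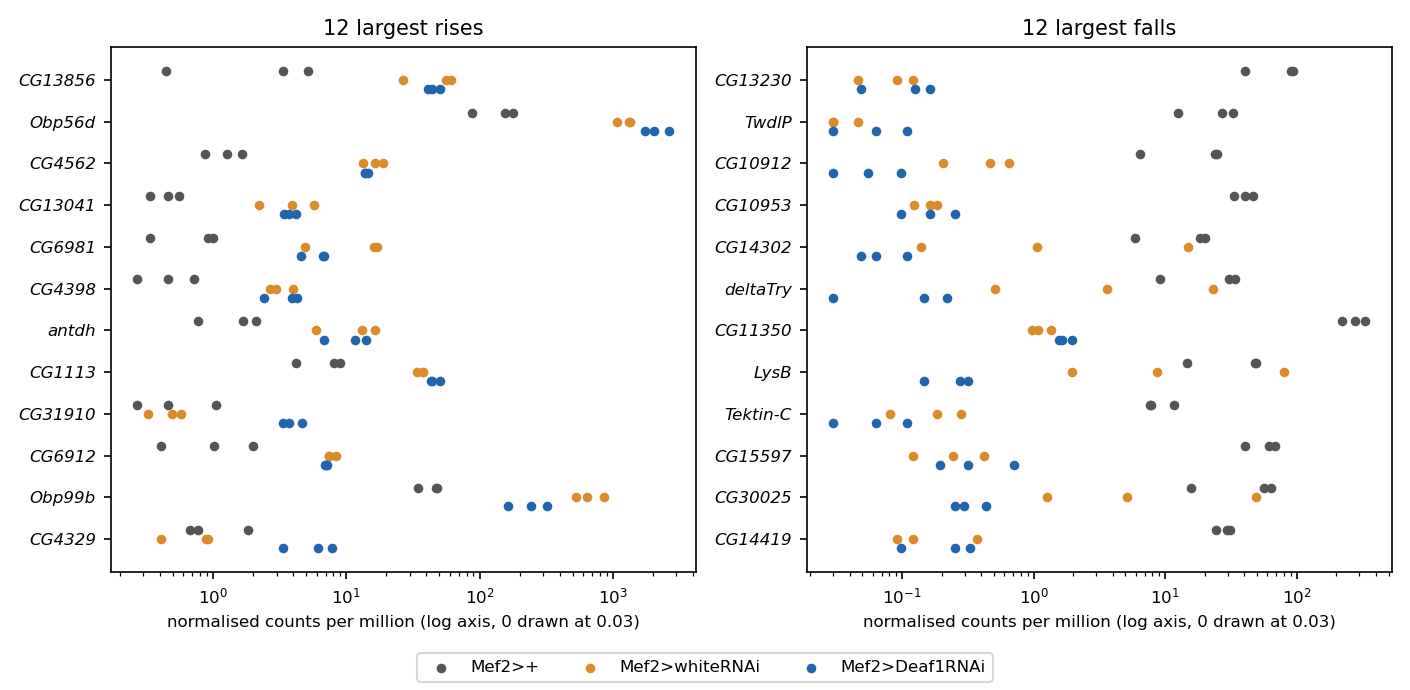
Normalised CPM (log axis, 0 drawn at 0.03) of the 12 largest rises (left) and the 12 largest falls (right) against Mef2>+, chosen among genes with an average log2 CPM of at least 1, in each library of Mef2>+ (grey), Mef2>whiteRNAi (orange) and Mef2>Deaf1RNAi (blue). For most genes the 2 hairpin genotypes lie together and apart from Mef2>+. CG31910 and CG4329 are the rises in which Mef2>whiteRNAi lies with Mef2>+.

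Markers of other tissues were followed through the comparison. Salivary glue genes summed to 10.3, 668 and 1457 CPM in the 3 Mef2>Deaf1RNAi libraries and to 121, 112 and 12.5 CPM in Mef2>+, so the groups overlapped and none of 7 genes was called. None of 9 neuronal markers, 7 tracheal genes or 7 fat body storage genes was called. The 30 spermatocyte and spermatid genes tested all had negative fold changes, with the high sum in Mef2>+ replicate 3 given above, and edgeR and limma voom called none (13 at an unadjusted p under 0.05 in edgeR), while DESeq2 called 8 lower. The part of these tissues in the results above was not tested. In ecdysone synthesis, nvd was the only 1 of 7 genes called, at 0.165, 0.126 and 0.343 CPM in Mef2>Deaf1RNAi against 1.84, 1.55 and 0.886 CPM in Mef2>+, a call lost without 4 of the 6 libraries, among them Mef2>+ replicates 1 and 2.

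Some lists of growth and stress regulators held called members. Of all genes tested, 3.41% were higher and 4.9% lower. Among 14 genes of the insulin, TOR, Foxo and Myc group, Mnt rose and ImpL2, a secreted insulin-binding protein that restrains insulin signaling, fell. ImpL2 stood at 643, 626 and 600 CPM under Deaf1 RNAi and at 988, 1006 and 869 CPM without a transgene, a log2 fold change of -0.61 (adjusted p = 0.020) that was called only with all libraries or without Mef2>+ replicate 3, and it was at 557, 564 and 796 CPM in the hairpin control. Of 20 heat shock genes, Hsp83, Hsc70-3, Hsc70-5 and Hsp60 fell and none rose, and 2 to 4 were called when single libraries were left out. Hsp83, the cytosolic Hsp90, was at 1105, 879 and 587 CPM against 1623, 1580 and 1710 CPM, and lost its call without 4 of the 6 libraries, among them Mef2>+ replicates 1 and 3. The Argonaute gene AGO1, which acts with microRNAs, was the 1 of 10 small RNA genes called, with a log2 fold change of 0.58 against Mef2>+ (adjusted p = 0.043) and 0.22 between the controls (adjusted p = 0.32). No proteasome gene of 27 and no cell cycle gene of 19 was called. Of 8 genes of muscle calcium handling, 2 fell and none rose, with a median of 0.03. Rya-r44F, the ryanodine receptor of the sarcoplasmic reticulum, stood at 95.4, 108 and 118 CPM against 215, 195 and 315 CPM, a log2 fold change of -1.17 (adjusted p = 0.049). It had 39.8, 64.8 and 132 CPM in Mef2>whiteRNAi. Calx, a sodium-calcium exchanger gene, stood at 19.9, 18.4 and 15.4 CPM against 27.5, 25.03 and 35.7 CPM and fell by 0.72 on the log2 scale, although it rose by 0.82 against Mef2>whiteRNAi. The calls of AGO1, Rya-r44F and Calx against Mef2>+ were lost when any 1 of the 6 libraries was left out.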

How the data were processed

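Filleted larvae were sequenced as stranded paired-end mRNA libraries. The authors aligned the reads with STAR to BDGP5, counted them per gene with HTSeq (GTF release 75) and deposited raw counts. The strand and overlap options of HTSeq are not given in the sources used here. Lines that name no gene were left out (no-feature share 3.36 to 6.75% in the 6 libraries). All 15 libraries were fitted with edgeR 4.0.16 (TMM factors, filterByExpr, 1 mean per genotype, quasi-likelihood test, Benjamini-Hochberg over 10930 genes) in R 4.3.3, where 2823 genes had an unadjusted p under 0.05. Limma voom (3.58.1), DESeq2 (1.42.0) and other settings were alternatives, and the fit was tested on simulated data. The study describes limma voom and also statistics in Partek on log2 FPKM (length-scaled) values, and it took p under 0.05 as significant. No replicate pair agreed within sampling noise. Gene lists were described by counts and medians. Named genes were Deaf1, w, v and y, the 12 largest changes in each direction and the 10 per direction that held against both controls (average log2 CPM of at least 1, no overlap of libraries), and list members. The comparison, lists and rules were chosen with earlier results of these data known, and lists said to be added came later still. Symbols were matched to BDGP6 and RefSeq tables (15369 of 15682) for overlaps and chromosomes only. No genome sequence was used here.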

Additional observations from a re-analysis of the deposited data

Results flagged for a closer look

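Among the lines of the count files that hold no gene, a median of 6.32% of entries in Mef2>Deaf1RNAi fell on no annotated feature (5.85 to 6.75%), above the 3.36 to 3.87% in Mef2>+, with 5.30 to 5.88% in Mef2>whiteRNAi. Reads aligned to several places made up a median of 5.20% (4.56 to 5.68%), above 2.53 to 2.60% in Mef2>+, with 3.55 to 4.55% in Mef2>whiteRNAi. These entries enter no gene value above, and their part in the results was not tested. Groups of 3 libraries were too small for a search for outlying samples.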

How the results depend on the processing

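Deaf1 stayed lower and called under every alternative run (log2 fold change -0.67 to -0.56 when single libraries were left out). DESeq2 called 754 higher and 831 lower genes and put 241 and 125 in the same direction against both controls. With limma voom 29 genes were lower against both controls and 0 midgut genes passed. Without a filter 37 genes were lower against both controls and 38 ribosomal protein genes were lower. With at least 10 counts in all libraries 1 midgut gene was called. Oxidative phosphorylation genes called higher were 1 with RLE factors and 3 with DESeq2, and sarcomere genes 2 in a fit of only the 6 libraries, which gives no value against the hairpin control.

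Replicate numbers did not pair the libraries (correlations of deviations -0.12, 0.03 and -0.08). With the replicate block, 228 genes were higher and 333 lower, 57 and 32 against both controls, 42 ribosomal protein, 3 midgut and 0 sarcomere genes were called.

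Leaving out single libraries, with 2 left in that group, gave 119 to 168 higher and 162 to 297 lower genes, and 25 to 109 and 8 to 51 against both controls (the 3 hairpin control libraries were added to this after seeing the data). It gave 12 to 36 ribosomal protein, 0 to 6 midgut, 2 to 3 odorant binding protein and 0 sarcomere genes. Beyond the smaller number of libraries, the cause of these changes was not tested. Over all alternatives run, limma voom and the replicate block included, 590 values were obtained for the other 44 named genes. Of these, 0 changed direction and 131 lost their call. Most of these genes were chosen for large changes without overlap of libraries, so a change of direction was unlikely from the outset.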

Other observations

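Genes of chromosome 4 were called more often than those of the large arms, a grouping looked at after the data were seen. Of 79 chromosome 4 genes tested, 18 were higher and 2 lower in Mef2>Deaf1RNAi than in Mef2>+ (25.3% called), whereas 6.91 to 9.44% of genes were called on X, 2L, 2R, 3L and 3R. The median log2 fold change of chromosome 4 genes was 0.22, with 60 of 79 above 0, against -0.10 to -0.05 on the other arms. The median was 0.18 to 0.25 when single libraries were left out, although only 1 to 5 genes were then called higher. Relative to Mef2>whiteRNAi, 14 were higher and 4 lower (median 0.13), and 7 were higher against both controls. CaMKII and yellow-h, with log2 fold changes of 0.57 and 0.77, were among these 7.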
